A study of Mus musculus with 24 samples.

Results

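The glycolysis set consisted of the glucose transporter Slc2a1 (GLUT1) and 9 enzymes that carry glucose to lactate: the hexokinases Hk1 and Hk2, the liver-type phosphofructokinase Pfkl, aldolase A (Aldoa), triosephosphate isomerase (Tpi1), phosphoglycerate kinase 1 (Pgk1), enolase 1 (Eno1), muscle pyruvate kinase (Pkm) and lactate dehydrogenase A (Ldha). Members were taken by gene name from the platform annotation, with all their probe sets other than the control ones. Of the 10 genes, 9 had a probe set, giving 12 of the 12422 probe sets tested; Eno1 had no annotated probe set and its level was not analysed here. Hk2, Aldoa and Pkm each had 2 probe sets, and the one with the higher mean over all arrays stands for the gene below unless the second is named.

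The 24 oligonucleotide arrays held RNA of sorted mouse leukocytes and formed 10 groups, 5 cell populations on each of 2 backgrounds. The B6g7 background is C57Bl/6-H2g7/g7, on which the BDC2.5 T cell receptor transgene gives what the labels call an aggressive insulitis, and the other background is NOD, where they call it benign. The transgene directs CD4 T cells against pancreatic islets. Pancreatic infiltrates were viable CD45+ cells from the pancreas of BDC2.5 mice, with 3 B6g7 arrays at 25, 28 and 24 days of age and 3 NOD arrays at 25 days. Pancreatic T cells were CD4+ cells with a high level of the BDC2.5 clonotype, with 2 B6g7 arrays at 25 and 22 days and 3 NOD arrays at 24, 24 and 25 days. Lymph node T cells had the same sort, with 2 B6g7 arrays at 25 and 22 days and 3 NOD arrays at 24, 22 and 25 days. NK cells were sorted as AsialoGM1+ CD45+ cells. The 2 B6g7 NK arrays came from mice of 6 and 3 weeks without the transgene, and of the 2 NOD NK arrays 1 was described with BDC2.5. Splenic leukocytes were viable CD45+ cells, with 2 arrays for each background; their labels name neither the transgene nor an age. The labels do not say that arrays of 1 group came from separate animals, so a p-value below measures the spread between arrays, which may be technical.

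Glycolysis splits glucose into pyruvate in the cytosol and yields ATP, and lactate dehydrogenase turns the pyruvate into lactate while restoring the NAD+ that the pathway needs. Resting lymphocytes run the pathway at a low rate. Activated T cells, NK cells and macrophages take up more glucose and release lactate, and the factors HIF1A and MYC are known to raise the transcription of the transporter and of most of these enzymes. Transcript levels are what the arrays measured, not the flux through the pathway.

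All levels are the log2 of the deposited intensity, so 1 unit is a change of 2-fold, and levels of different probe sets are not set against each other. Probe sets of 10 transcripts that leukocytes do not make had medians between 3.10 and 7.66, with a middle value of 4.16. These were taken over the 13 lymph node T cell, NK cell and spleen arrays, 1 of which lay above the limit for liver transcripts given below. Hk1, Aldoa, Pgk1, Pkm and Ldha lay above all 10 of these by their mean over the arrays. Pfkl and the second Pkm probe set lay at or below 2 of them, and Tpi1 at or below 1. Slc2a1 lay at or below 3 of them and Hk2 at or below 4, so their levels may not be above those of absent transcripts. RNA quality and other cells differed between the populations. The 3′ minus 5′ difference of the Gapdh control probe sets, which grows when RNA is short or amplified from its 3′ end, was 2.56 to 3.65 in infiltrates, 2.78 to 4.87 in pancreatic T cells, 4.32 to 5.27 in NK cells, 2.83 to 3.84 in lymph node T cells and 0.21 to 0.37 in spleen. Liver transcripts averaged above 6.63, a limit set 2 units over the highest spleen array, in B6g7 infiltrate arrays 1 and 2, pancreatic T cell array 1 of both backgrounds and B6g7 lymph node T cell array 1. NOD lymph node T cell array 1 was below it, at 6.20, yet its level of the liver transcript Alb was 8.40. It was kept where arrays with liver transcripts were left out.

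The promoters of Pgk1 and Ldha are shown because the levels of these enzymes varied together across the populations and both are textbook targets of HIF1A. The 250 bases before a RefSeq start site in mouse build GRCm38.p6 were searched for ACGTG, the core of the hypoxia response element, on either strand. CACGTG, also the E-box that MYC binds, counts on both strands. The motif was in 7 of 17 windows of the members, belonging to 6 of the 10 genes, and in 16.6% of 32851 windows of all genes. The other genes with it were Slc2a1, Hk2, Aldoa and Pkm. Their correlations with Pgk1 over group means were -0.47, -0.04, -0.25 and -0.09, against 0.93 for Ldha. Whether HIF1A set any of these levels was not tested. Windows of start sites close together overlap, and the matches of 2 Aldoa windows, 126 and 202 bases before their starts, are the same site. Capitals mark the motif in the windows chrX:106186850-106187099 (Pgk1, plus strand) and chr7:46845554-46845803 (Ldha, plus strand, 1 of its start sites).
Pgk1: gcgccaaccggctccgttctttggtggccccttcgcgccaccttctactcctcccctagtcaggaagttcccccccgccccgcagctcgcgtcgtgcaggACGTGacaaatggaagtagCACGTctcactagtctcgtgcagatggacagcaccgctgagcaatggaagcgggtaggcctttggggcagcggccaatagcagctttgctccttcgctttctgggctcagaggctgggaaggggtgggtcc
Ldha: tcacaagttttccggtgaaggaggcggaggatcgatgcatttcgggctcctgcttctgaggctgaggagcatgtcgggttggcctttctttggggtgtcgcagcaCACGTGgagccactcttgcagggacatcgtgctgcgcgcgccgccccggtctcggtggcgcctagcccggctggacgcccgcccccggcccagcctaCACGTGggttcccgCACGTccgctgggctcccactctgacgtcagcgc
The Pgk1 window held 2 matches, 150 and 131 bases before the start. The Ldha window held 5 matches, at 145, 144, 48, 47 and 34 bases, with both strands of CACGTG counted. The window of the other Ldha start site, not shown, held 0 matches. A match describes the letters and is no evidence of binding in these cells.

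**Figure D1:**
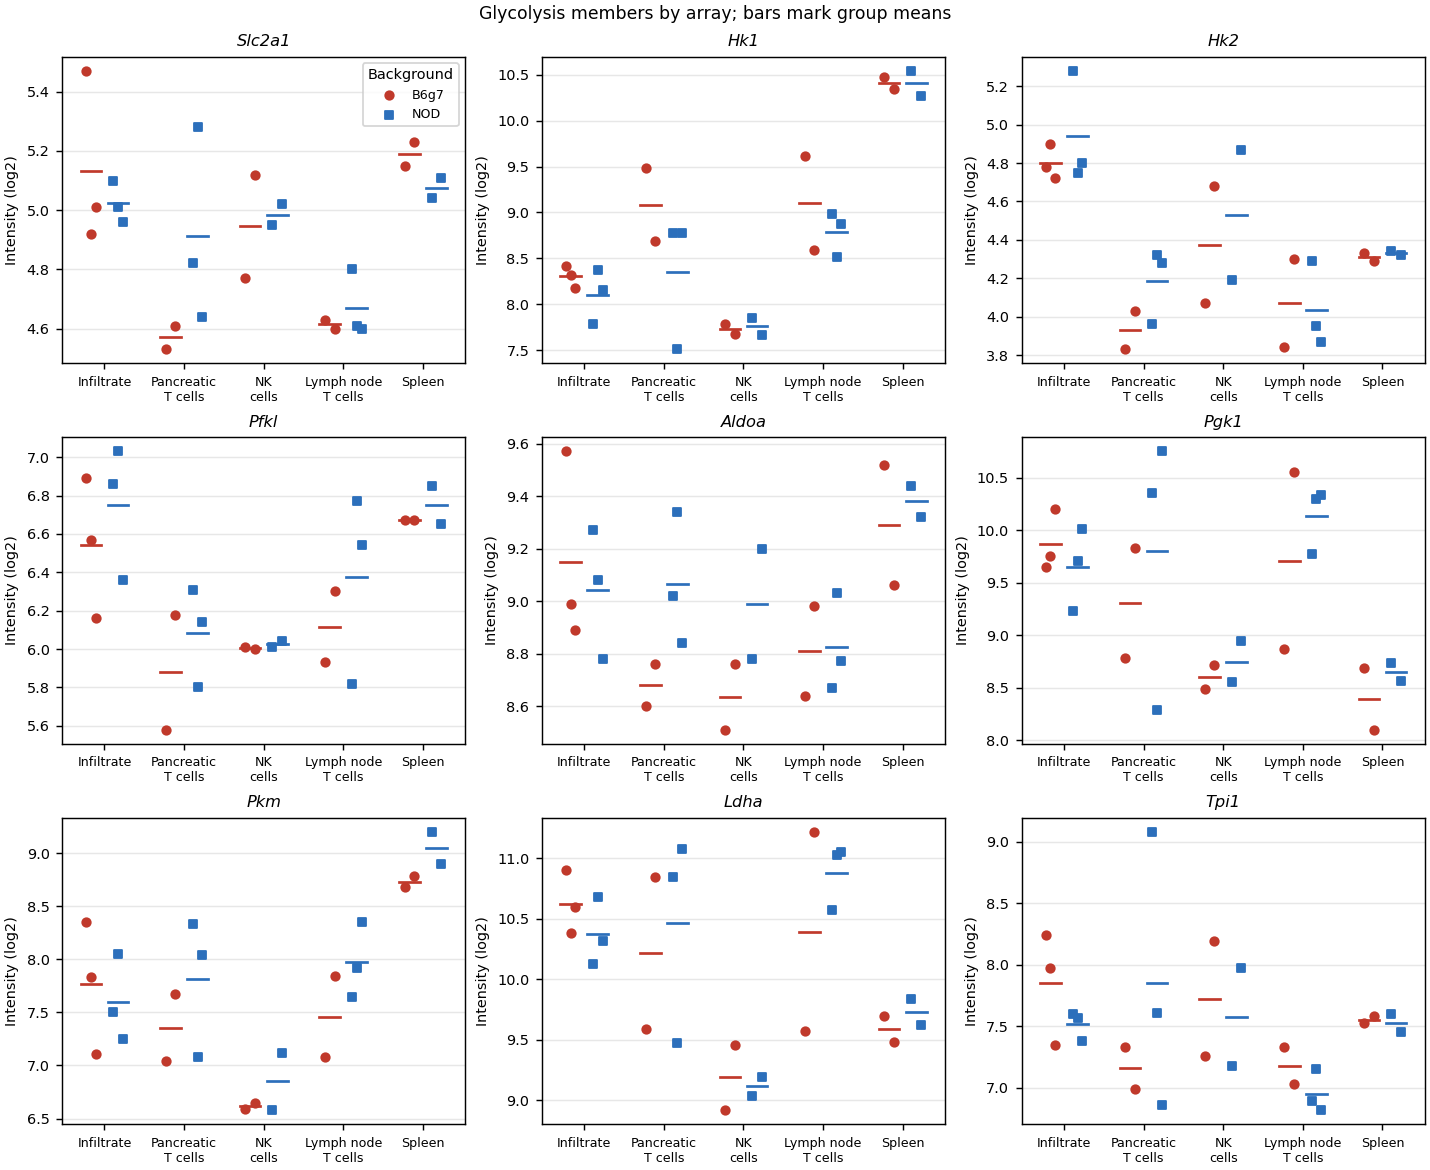
Level of each of the 9 measured genes (log2 intensity, vertical axis, own scale per panel) in every array, by cell population (horizontal axis) and background (B6g7 red circles, NOD blue squares), with bars at the group means. Hk1 and Pkm were highest in spleen, and Pgk1 and Ldha were low in all NK cell and spleen arrays and widely spread in the T cell arrays.

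The first question was whether the leukocytes of the aggressive B6g7 lesion carried other levels of glycolysis transcripts than those of the benign NOD lesion. Slc2a1 (chromosome 4, 119108745 to 119137330), the basal glucose transporter of most cells, had levels of 5.47, 4.92 and 5.01 in B6g7 infiltrates, against 5.10, 5.01 and 4.96 in NOD infiltrates. Hk1 (chromosome 10, 62268855 to 62379920), the housekeeping hexokinase, had 8.42, 8.32 and 8.18 in B6g7 infiltrates, against 7.79, 8.37 and 8.15 in NOD infiltrates. Ldha (chromosome 7, 46842274 to 46855627) had 10.90, 10.38 and 10.60 in B6g7 infiltrates, against 10.13, 10.68 and 10.32 in NOD infiltrates. In all 3 genes the arrays of both backgrounds overlapped, as they did for each of the 12 probe sets, beside 10.6% of all probe sets without overlap.

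None of the 12 probe sets passed the test between the infiltrates (limma's moderated test, adjusted p = 0.999 for each), beside 0.274% of all probe sets, and none had an unadjusted p under 0.05. The differences of the 9 genes, B6g7 minus NOD, ran between -0.21 (Pfkl) and 0.34 (Tpi1). Their median was 0.16, beside -0.02 over all probe sets. The 95% intervals of the 9 genes lay between -0.86 and 1.28, and both ends were those of Pgk1. That of Slc2a1 ran from -0.23 to 0.45. With 3 arrays a group, the differences that the data leave possible thus depended on the gene.

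The same holds in the sorted populations. None of the 12 probe sets passed, and none had an unadjusted p under 0.05, in pancreatic T cells (0.145% of all probe sets passed), NK cells (0.0483%), lymph node T cells (0.129%) or spleen (0.0725%), nor in the average over the 5 populations (1.17%). A count of 0 among 12 is close to these background shares. The largest difference in pancreatic T cells was that of Hk1, with 9.48 and 8.69 in B6g7 cells and 8.78, 7.51 and 8.78 in NOD cells (difference 0.73, SE 0.35, adjusted p = 0.779 by limma). The median difference of the 9 genes was -0.34 in pancreatic T cells, beside -0.02 over all probe sets, and 8 of the 9 had a value below 0 there. These signs were not all stable. Under the alternative settings, single arrays left out aside, values reached 0.57 for Ldha, 0.31 for Pgk1, 0.20 for Pfkl and 0.10 for Pkm. Those of Slc2a1, Hk2, Aldoa and Tpi1 stayed below 0. Averaged over the 5 populations the 95% intervals were narrower, between -0.76 and 0.58, and the largest value was -0.27 for Pkm (SE 0.18, adjusted p = 0.999 by limma).

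**Figure D2:**
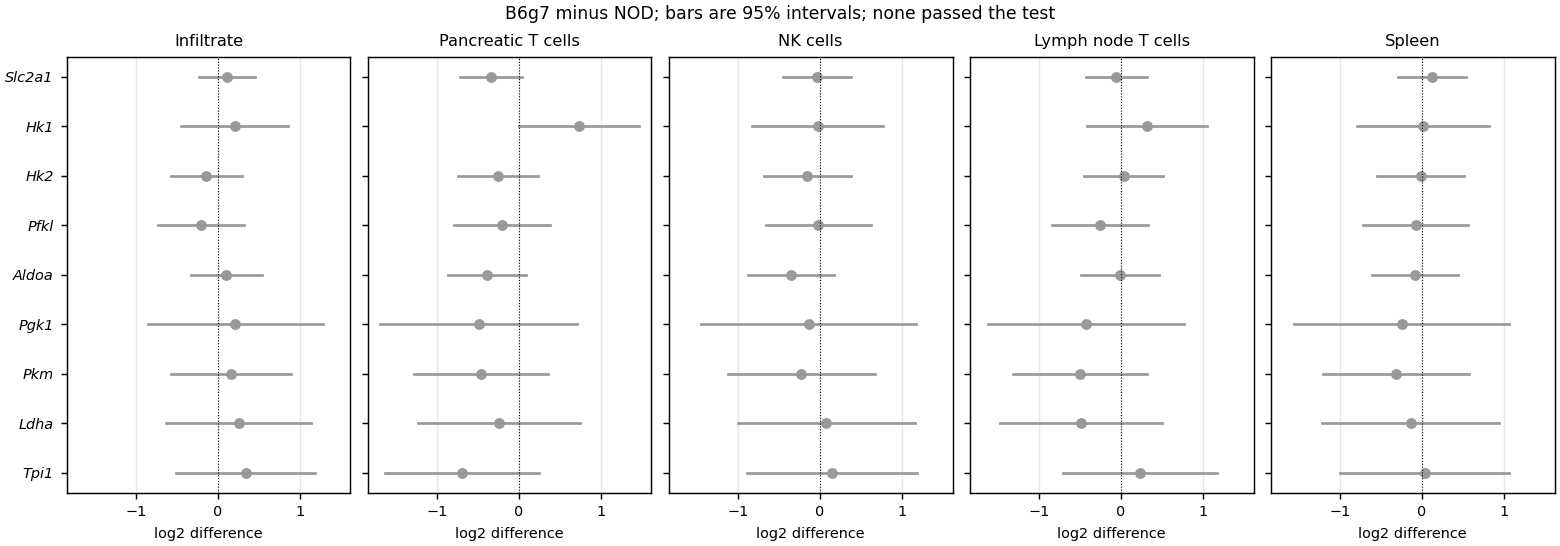
Difference between backgrounds, B6g7 minus NOD (log2, horizontal axis), for the 9 genes (vertical axis) in each of the 5 populations, with 95% intervals from the limma fit. None of the points passed the test, and the Pgk1 intervals are the widest, reaching -1.69 in pancreatic T cells.

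Other genes of the pathway and its branches were counted from a list. Of 25 further pathway genes with a probe set, Pdk1 passed in infiltrates and in the T cells of both sites, and was higher in B6g7 each time, while none passed lower in these comparisons. Pdk1 is a kinase that switches off pyruvate dehydrogenase, the enzyme complex that sends pyruvate into the mitochondria. Pdk1 lay between 7.61 and 8.36 in B6g7 infiltrates, against 5.51 to 6.20 in NOD infiltrates. It lay between 8.67 and 8.83 in B6g7 pancreatic T cells, against 4.90 to 6.83 in NOD ones. It lay between 8.59 and 9.17 in B6g7 lymph node T cells, against 5.95 to 6.54 in NOD ones. The backgrounds did not overlap in NK cells either, with 7.23 to 8.14 in B6g7 and 5.83 to 5.94 in NOD (adjusted p = 0.418 by limma; 30.7% of all probe sets lacked overlap), nor in spleen, with 6.93 to 7.05 in B6g7 and 5.18 to 5.19 in NOD (0.433; 26.0%). Pdk1 was 7.19-fold higher in pancreatic T cells (limma adjusted p = 0.00556), 6.22-fold higher in lymph node T cells (0.00910) and 4.73-fold higher averaged over the 5 populations (log2 2.24, SE 0.19, adjusted p = 3.95e-06). Eno3, the muscle form of enolase, was 1.53-fold lower in B6g7 in that average (log2 -0.61, SE 0.12, limma adjusted p = 0.0107). Of 13 regulators of the pathway, Hif1a and Myc among them, none passed in any comparison between backgrounds. Both lists were chosen with earlier results on Pdk1 known.

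The infiltrate was next set against the spleen, both sorted as viable CD45+ leukocytes, within each background. Hk1, which commits glucose to the cell by phosphorylating it, was lower in the infiltrate on both backgrounds. Its level was 8.42, 8.32 and 8.18 in B6g7 infiltrates, against 10.48 and 10.34 in B6g7 spleens. It was 7.79, 8.37 and 8.15 in NOD infiltrates, against 10.54 and 10.27 in NOD spleens. All infiltrate arrays lay at least 1 unit below all spleen arrays. Hk1 fell 4.31-fold in B6g7 (log2 -2.11, SE 0.35, limma adjusted p = 8.05e-04) and 4.93-fold in NOD (log2 -2.30, SE 0.35, adjusted p = 3.13e-04).

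Pkm (chromosome 9, 59656576 to 59679372), which makes pyruvate in the last ATP-yielding step, fell 2.72-fold in the NOD infiltrate (log2 -1.45, SE 0.39, limma adjusted p = 0.0266). Its levels were 7.50, 8.05 and 7.25 in NOD infiltrates, against 9.20 and 8.90 in NOD spleens. In B6g7 they were 8.35, 7.83 and 7.11 in infiltrates, against 8.68 and 8.78 in spleens, without overlap (log2 -0.97, adjusted p = 0.160 by limma). The second Pkm probe set gave -0.49 on both backgrounds, with adjusted p = 0.0863 in B6g7 and 0.0744 in NOD by limma. The NOD call was lost without NOD infiltrate array 1 (adjusted p = 0.0701), NOD infiltrate array 3 (0.0912), NOD spleen array 1 (0.251) or NOD spleen array 2 (0.102), and with the replicate number as a block (log2 -1.27, adjusted p = 0.114) or runs of serial codes in the labels as a block (log2 -1.53, adjusted p = 0.115).

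Pgk1 (chromosome X, 106187100 to 106203699), which makes the first ATP of the pathway, and Ldha had values in the other direction. Pgk1 was at 9.65, 9.75 and 10.20 in B6g7 infiltrates, against 8.69 and 8.10 in B6g7 spleens, and at 9.23, 9.71 and 10.01 in NOD infiltrates, against 8.73 and 8.56 in NOD spleens. Ldha was at 10.90, 10.38 and 10.60 in B6g7 infiltrates, against 9.70 and 9.48 in B6g7 spleens, and at 10.13, 10.68 and 10.32 in NOD infiltrates, against 9.84 and 9.62 in NOD spleens. The infiltrate arrays were above the spleen arrays throughout, yet neither gene passed. The fitted fold of Pgk1 was 2.76 in B6g7 (log2 1.47, SE 0.57, adjusted p = 0.143 by limma) and 2.01 in NOD (0.327), and that of Ldha 2.05 in B6g7 (0.224) and 1.56 in NOD (0.470). With only the compared groups in the fit, Pgk1 passed on both backgrounds (adjusted p = 0.0137 in B6g7 and 0.0336 in NOD) and Ldha in B6g7 (0.0192).

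Hk2 (chromosome 6, 82725025 to 82774454), the inducible hexokinase of activated cells, also lay higher in each infiltrate array than in the spleen arrays of its background. It was at 4.78, 4.90 and 4.72 in B6g7 infiltrates, against 4.33 and 4.29 in B6g7 spleens, and at 5.28, 4.75 and 4.80 in NOD infiltrates, against 4.34 and 4.32 in NOD spleens. It did not pass (log2 0.49, adjusted p = 0.244 in B6g7, and 0.62, adjusted p = 0.112 in NOD, by limma). The second Hk2 probe set had the opposite sign on both backgrounds. Its means were 3.16 in B6g7 infiltrates against 3.22 in B6g7 spleens, and 3.08 in NOD infiltrates against 3.17 in NOD spleens. Levels of both probe sets may not be above those of absent transcripts.

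In all, 1 of 12 probe sets passed in B6g7, where 7.58% of all probe sets passed, and 2 of 12 in NOD, where 9.12% passed. Arrays did not overlap for 6 of the 12 probe sets in B6g7, beside 45.6% of all, and for 7 of 12 in NOD, beside 47.4%. The difference between infiltrate and spleen did not itself differ between backgrounds for any of the 12 by limma's interaction term (adjusted p = 0.999 for each, none with an unadjusted p under 0.05, 0.0403% of all probe sets passing). Among the regulators, Hif1a was 3.03-fold higher in the B6g7 infiltrate than in spleen (limma adjusted p = 0.0392) and 2.93-fold higher in the NOD infiltrate (0.0410). Its second probe set gave adjusted p = 0.0348 in B6g7 and 0.0749 in NOD by limma. Spleens had the lowest Hif1a group means, 8.94 (B6g7) and 8.95 (NOD), against 10.54 and 10.51 in infiltrates. Lymph node T cells had 10.17 and 10.49, pancreatic T cells 9.63 and 10.38, and NK cells 9.94 and 9.96. The first Hif1a probe set is of a kind that can read related sequences. Myc fell by 1.04 on the log2 scale in B6g7 (adjusted p = 0.0446) and by 1.30 in NOD (0.0117), with group means between 3.82 and 5.51, near those of absent transcripts. Arnt, the partner of HIF1A, fell by 0.54 in NOD (adjusted p = 0.0152 by limma), and these are all the regulators that passed, of 13. Of the 25 pathway genes, 1 passed, on both backgrounds: Dlat, a subunit of pyruvate dehydrogenase, was higher (log2 0.80, adjusted p = 0.0283 in B6g7, and 0.95, adjusted p = 0.00913 in NOD, by limma). Its second probe set was at -0.22 in B6g7 (adjusted p = 0.638) and 0.18 in NOD (0.678).

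**Figure D3:**
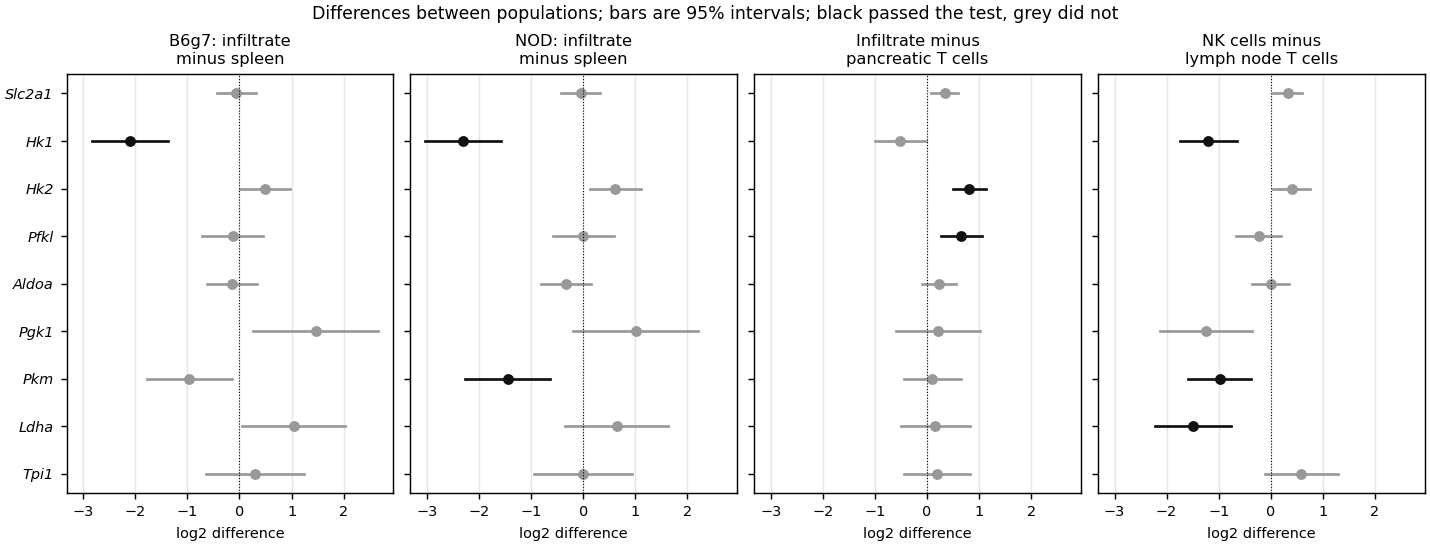
Log2 difference between populations (horizontal axis) for the 9 genes (vertical axis) with 95% intervals, infiltrate minus spleen on each background, infiltrate minus pancreatic T cells and NK cells minus lymph node T cells, the last pair averaged over backgrounds. Black points passed the test and grey points did not; Hk1 lies far below 0 in both spleen panels, with Pgk1 and Ldha above 0.

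Infiltrate and spleen RNA differed in rounds of amplification, 2 for infiltrates (not stated for 1 array) and 1 for spleens, and the labels give the BDC2.5 transgene and an age for infiltrates and neither for spleens. Tissue, amplification, transgene and age therefore cannot be told apart. With the Gapdh 3′ minus 5′ difference as a covariate, Hk1 kept its sign and did not pass, at -1.52 in B6g7 (adjusted p = 0.147 by limma) and -1.61 in NOD (0.209), and Pkm in NOD was -0.29 (0.901). Pgk1 then passed on both backgrounds, at 3.76 (adjusted p = 0.00924 by limma) and 3.71 (0.0245), and so did Ldha, at 2.85 (0.0163) and 2.79 (0.0425). The Gapdh difference did not overlap between infiltrates, at 2.56 to 3.65, and spleens, at 0.21 to 0.37. Values fitted with this covariate are therefore extrapolated, and it cannot be told apart from the tissue. Fewer cells of a type and less RNA per cell cannot be told apart in such sorted bulk samples. B cell markers, of which 4 of 5 had a probe set, averaged 8.50 to 8.92 in infiltrates, against 10.18 to 10.48 in spleens. Macrophage markers, 6 of 6, averaged 6.37 to 7.36 in infiltrates, against 5.58 to 5.95 in spleens. Their part in the differences of the members was not tested.

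**Figure D4:**
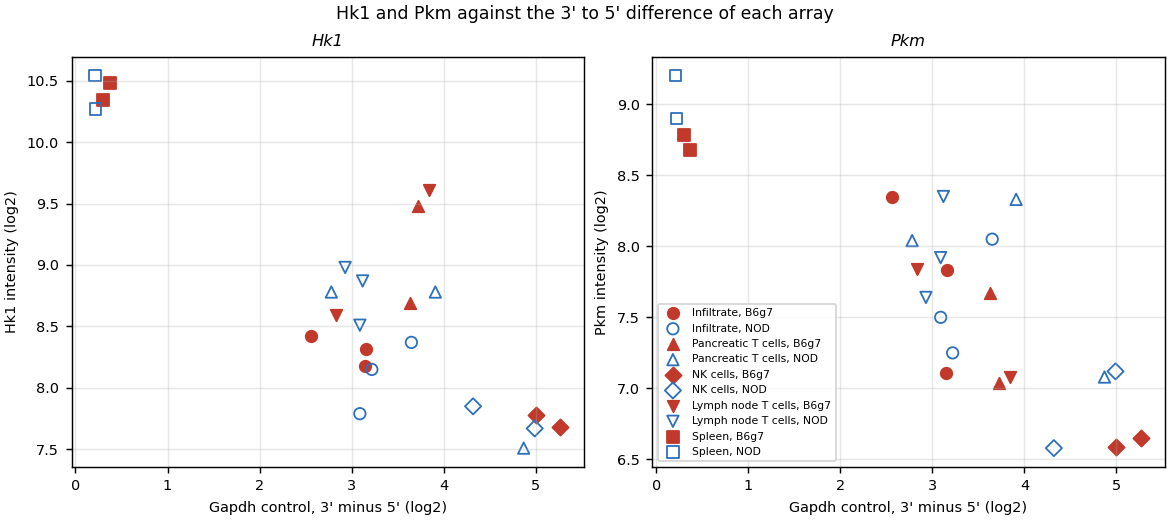
Levels of Hk1 and Pkm (log2 intensity, vertical axes) against the Gapdh 3′ minus 5′ difference of each array (log2, horizontal axis), by population (marker shape) and background (B6g7 filled red, NOD open blue). The 4 spleen arrays stand at 0.21 to 0.37 with the highest Hk1 levels, and the NK arrays lie at 4.32 to 5.27 with low ones.

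The infiltrate was then set against the BDC2.5 T cells sorted from the pancreas, averaged over backgrounds. Hk2 was higher in the infiltrate (log2 0.81, SE 0.15, limma adjusted p = 0.00244); no fold is given, since its levels in the T cells lay around those of absent transcripts. Its levels were 4.72 to 5.28 in the 6 infiltrate arrays (median 4.79), against 3.83 to 4.32 in the 5 pancreatic T cell arrays (median 4.03), and the arrays did not overlap. The second Hk2 probe set had the opposite sign, at 3.03 to 3.22 in infiltrates and 3.21 to 3.64 in pancreatic T cells (log2 -0.28, adjusted p = 0.0946 by limma), with 9 of the 10 absent transcripts at or above its mean. Averaged over both probe sets Hk2 did not pass (log2 0.27, adjusted p = 0.132 by limma).

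Pfkl (chromosome 10, 77986947 to 78009807), a form of the enzyme that sets the pace of glycolysis, was 1.58-fold higher in the infiltrate (log2 0.66, SE 0.19, limma adjusted p = 0.0379). It was at 6.16 to 7.03 in infiltrates (median 6.71) and 5.58 to 6.31 in pancreatic T cells (median 6.14), with overlap. Of the 10 absent transcripts, 2 had medians at or above the mean of Pfkl over the arrays. The call was lost without the infiltrate arrays that carried liver transcripts (log2 0.47, adjusted p = 0.296) or, in an alternative chosen after seeing the data, without the T cell arrays that did (0.57, adjusted p = 0.146). It was also lost with only the compared groups in the fit (0.66, adjusted p = 0.130), the Gapdh covariate (0.56, adjusted p = 0.174) or serial code runs as a block (0.58, adjusted p = 0.215), and when any of 6 single arrays was left out, with adjusted p up to 0.237 without B6g7 pancreatic T cell array 1.

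The 2 called probe sets of 12 stand beside 7.45% of all probe sets, and 1 of 12 without overlap stands beside 4.44%. Hk1 had the opposite sign, at 7.79 to 8.42 in infiltrates (median 8.25) and 7.51 to 9.48 in pancreatic T cells (median 8.78), and did not pass (log2 -0.52, adjusted p = 0.205 by limma). Slc2a1 was at 4.92 to 5.47 in infiltrates (median 5.01) and 4.53 to 5.28 in pancreatic T cells (median 4.64; log2 0.34, adjusted p = 0.108 by limma). Without NOD pancreatic T cell array 2, both passed, Hk1 at -0.73 (adjusted p = 0.0215) and Slc2a1 at 0.43 (0.0165). That array had the largest Gapdh 3′ minus 5′ difference of the T cell arrays, 4.87.

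Of the 25 further pathway genes, 2 passed here, beside 7.45% of all probe sets, and both were higher in the infiltrate. Pgd, an enzyme of the pentose phosphate branch that makes NADPH, was 2.01-fold higher (limma adjusted p = 0.00251), at 7.87 to 8.35 in B6g7 and 7.93 to 8.55 in NOD infiltrates, against 6.80 to 7.49 in B6g7 and 6.93 to 7.25 in NOD pancreatic T cells. Its second probe set did not pass (log2 0.05, adjusted p = 0.903 by limma). Eno3 was 1.54-fold higher (adjusted p = 0.0345 by limma). Macrophage markers averaged 6.37 to 7.36 in infiltrates and 4.49 to 5.54 in pancreatic T cells, with 4 of 6 called higher, and B cell markers 8.50 to 8.92 and 5.53 to 5.82, with 4 of 4 called higher. Their part in these differences was not tested.

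NK cells were compared with lymph node T cells of the BDC2.5 sort, averaged over backgrounds. The B6g7 NK donors lacked the transgene and had other ages, so these, and any difference in the organ of origin, cannot be told apart from cell type. Hk1, Pkm and Ldha were lower in NK cells, and Pgk1 fell short of the threshold on the same side. Hk1 was at 7.78 and 7.68 in B6g7 NK cells and 7.85 and 7.67 in NOD NK cells, against 9.61 and 8.59 in B6g7 lymph node T cells and 8.98, 8.51 and 8.87 in NOD ones. Ldha was at 8.92 and 9.46 in B6g7 NK cells and 9.04 and 9.19 in NOD NK cells, against 9.57 and 11.22 in B6g7 lymph node T cells and 10.57, 11.03 and 11.05 in NOD ones. For both genes each NK array lay below each T cell array.

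Hk1 was 2.30-fold lower in NK cells (log2 -1.20, SE 0.26, limma adjusted p = 0.00374) and Ldha 2.80-fold lower (log2 -1.49, SE 0.35, adjusted p = 0.00684). Pkm was 1.97-fold lower (log2 -0.98, SE 0.29, limma adjusted p = 0.0276), at 6.58 to 7.12 in NK cells (median 6.62) and 7.08 to 8.35 in lymph node T cells (median 7.84). Its second probe set did not pass (log2 -0.10, adjusted p = 0.687 by limma), nor did the mean of both (-0.54, adjusted p = 0.0656). Pgk1 was at 8.49 to 8.94 in NK cells (median 8.64) and 8.87 to 10.55 in lymph node T cells (median 10.30; log2 -1.25, SE 0.42, adjusted p = 0.0553 by limma), so that its call depended on the setting. Pgk1 passed with median centring (-1.31, adjusted p = 0.0404), without the 40% dimmest probe sets (adjusted p = 0.0400), with only the compared groups (0.0392), without the T cell arrays with liver transcripts (-1.67, adjusted p = 0.0120) and without B6g7 lymph node T cell array 1 (-1.67, adjusted p = 0.0165).

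These 3 of 12 probe sets, all lower, stand beside 15.2% of all probe sets passing, and beside 8.68% passing lower. Arrays did not overlap for 2 of 12, beside 22.6% of all. Without B6g7 lymph node T cell array 2, Hk1 alone passed, with Ldha at -1.08 (adjusted p = 0.0528) and Pkm at -0.79 (adjusted p = 0.137 by limma). Pkm also failed without either B6g7 NK array (0.0745 and 0.0764), NOD NK array 1 (0.113) or NOD lymph node T cell array 3 (0.0532). With the Gapdh difference as a covariate, which did not overlap between these populations, Hk1 was at -0.82 (adjusted p = 0.350), Ldha at -0.31 (0.791) and Pkm at -0.34 (0.751), and none passed. With serial code runs as a block, Ldha was at -1.31 (adjusted p = 0.0520) and Pkm at -0.90 (0.163), while Hk1 passed.

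Markers of other cells differed between the NK and lymph node T cell arrays. Granulocyte markers, 6 of 6, averaged 5.42 to 10.62 in NK cells and 4.55 to 4.99 in lymph node T cells, with 5 called higher. Macrophage markers, 6 of 6, averaged 6.11 to 7.06 in NK cells and 4.34 to 4.59 in lymph node T cells, with 5 called higher. B cell markers, 4 of 5, averaged 7.44 to 8.27 in NK cells and 5.40 to 5.75 in lymph node T cells, with 3 called higher. T cell markers, 5 of 7, averaged 5.56 to 7.20 in NK cells and 8.33 to 8.64 in lymph node T cells, with 3 called lower. Their part in the differences of the members was not tested.

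Of the 25 further pathway genes, 3 passed in this comparison, beside 15.2% of all probe sets. Pfkp, the platelet form of phosphofructokinase, was 2.23-fold lower in NK cells (limma adjusted p = 2.43e-04), and its second probe set passed in the same direction (0.0163). Pdha1, the catalytic subunit of pyruvate dehydrogenase, was 3.28-fold lower (0.00654), and Pdk3, another kinase of that complex, was 1.84-fold higher (9.49e-04). Of the 13 regulators, 2 passed, both lower, beside 15.2% of all probe sets passing and 8.68% passing lower. Ddit4, an inhibitor of mTORC1, was 3.75-fold lower (0.0159). Egln1, the oxygen sensor that marks HIF1A for degradation, was 1.65-fold lower (0.0376), all by limma.

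T cells of the lesion were compared with those of the lymph node on each background. None of the 12 probe sets passed in NOD, beside 0.0161% of all, in B6g7, beside 0%, or in the test of whether the sites differed unequally between backgrounds, beside 0%. Tpi1 (chromosome 6, 124810586 to 124814158), which interconverts the triose phosphates, was the 1 probe set with an unadjusted p under 0.05 in NOD, and none had one in B6g7 or in the interaction. Its levels were 9.08, 7.61 and 6.86 in NOD pancreatic T cells, against 6.89, 7.15 and 6.82 in NOD lymph node T cells (log2 0.90, SE 0.40, adjusted p = 0.245 by limma). The highest of these, array 1, also had the highest mean of liver transcripts, 11.64, and without it the difference was 0.28 (adjusted p = 0.558). Without NOD pancreatic T cell array 3 it passed, at 1.40 (adjusted p = 0.0176), and 1849 of all probe sets passed then, against 2 with every array.

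Pgk1 and Ldha varied widely between T cell arrays. Pgk1 was at 8.78 and 9.83 in B6g7 pancreatic T cells, against 8.87 and 10.55 in B6g7 lymph node T cells, and at 10.35, 8.29 and 10.75 in NOD pancreatic T cells, against 9.77, 10.30 and 10.33 in NOD lymph node T cells. Ldha was at 9.59 and 10.85 in B6g7 pancreatic T cells, against 9.57 and 11.22 in B6g7 lymph node T cells, and at 10.85, 9.47 and 11.08 in NOD pancreatic T cells, against 10.57, 11.03 and 11.05 in NOD lymph node T cells. The same 3 arrays were lowest in both genes: array 1 of B6g7 at both sites and array 2 of NOD pancreatic T cells. The B6g7 pair carried liver transcripts, averaging 10.22 and 9.65, and the NOD array had the Gapdh difference of 4.87, but NOD pancreatic T cell array 1, with the most liver transcript, was not low. Whether these set the levels was not tested. In the pair of NOD arrays numbered 2, pancreas minus lymph node was -2.01 for Pgk1 and -1.56 for Ldha, while the other pairs gave 0.58 and 0.42 for Pgk1 and 0.28 and 0.02 for Ldha.

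Across the 10 group means Pgk1 and Ldha had a correlation of 0.93, the highest of any pair of members, as a description over groups that differ in amplification and RNA quality. Hk1 and Pkm had 0.87, Aldoa and Pkm 0.80, and Pfkl and Aldoa 0.78. Pgk1 and Hk1 had -0.33, and Ldha and Hk1 had 0.02. The members thus did not vary as 1 block: Hk1 and Pkm were highest in spleen, and Pgk1 and Ldha in T cells and infiltrates.

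**Figure D5:**
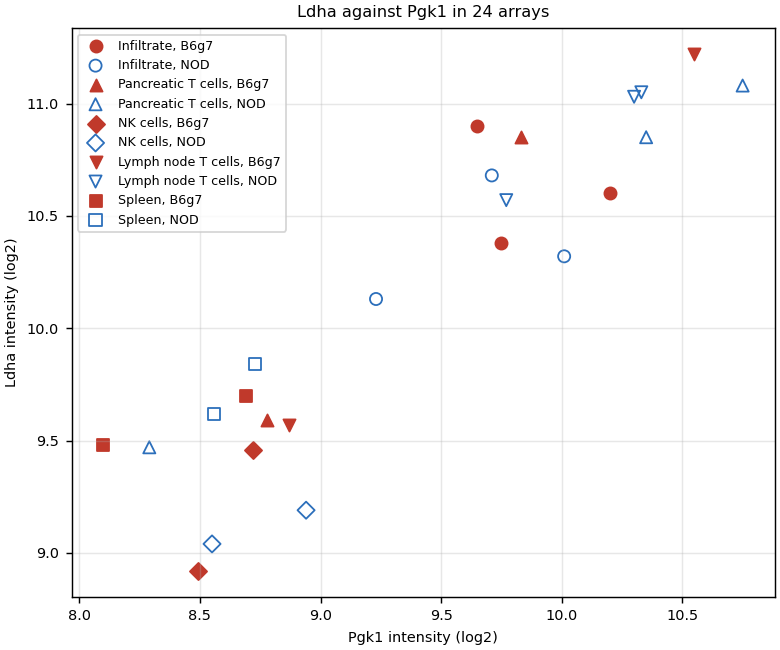
Ldha against Pgk1 (log2 intensity on both axes) in the 24 arrays, by population (marker shape) and background (B6g7 filled red, NOD open blue). All NK and spleen arrays and 3 T cell arrays lie in the lower left, and the infiltrates and the other T cell arrays lie in the upper right.

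Hk1 had the widest span of group means, 2.69, with spleen at 10.41 ± 0.10 (B6g7) and 10.40 ± 0.19 (NOD; SD, n = 2 each) at the top, then lymph node T cells at 9.10 ± 0.72 (B6g7, n = 2), and NK cells at 7.76 ± 0.13 (NOD) and 7.73 ± 0.07 (B6g7, n = 2 each) at the bottom. Of its 9 pairs of neighbouring groups 8 overlapped, and the gap lay between spleen and T cells. The groups are ordered by their own means for each gene, so overlap of neighbours is easily reached. No share over all probe sets is at hand, and these counts are a description only. For Pkm the span was 2.42, with the NOD spleen at 9.05 ± 0.22 and the B6g7 spleen at 8.73 ± 0.07 (n = 2 each) apart from each other and from the rest, and 7 of 9 neighbours overlapping. For Ldha the span was 1.77, with NOD lymph node T cells at 10.88 ± 0.27 (n = 3) first and NOD NK cells at 9.11 ± 0.10 (n = 2) last, and 8 of 9 neighbours overlapping. For Pgk1 it was 1.74, with NOD lymph node T cells at 10.14 ± 0.32 (n = 3) first and the B6g7 spleen at 8.40 ± 0.42 (n = 2) last, and each neighbour overlapped the next.

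Group means of the other members spanned less, although Hk2 and Pfkl passed in infiltrate over pancreatic T cells. Group means of Slc2a1 spanned 0.62, with the B6g7 spleen at 5.19 ± 0.05 first and B6g7 pancreatic T cells at 4.57 ± 0.05 last (n = 2 each). Those of Aldoa (chromosome 7, 126795234 to 126800994), which splits fructose bisphosphate, spanned 0.74, with the NOD spleen at 9.38 ± 0.09 first and B6g7 NK cells at 8.64 ± 0.18 last (n = 2 each). The second Aldoa probe set ordered the groups otherwise. NOD NK cells came first there, at 8.64 ± 0.55 (n = 2), and NOD lymph node T cells last, at 7.87 ± 0.35 (n = 3). Both Aldoa probe sets are of a kind that can read related sequences, and neither passed in any comparison. The second Pkm probe set is of the same kind. The first, on which the Pkm calls rest, is of a kind whose probes several transcripts can share. Group means of Pfkl spanned 0.87, those of Tpi1 0.90 and those of Hk2 1.01. For Tpi1 the largest SD within a group, 1.13 in NOD pancreatic T cells (n = 3), was wider than that span.

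Genes most like a member were ranked by Pearson correlation over the 10 group means. For Hk1 these were Ldb1 (0.985), Med11 (0.984) and Naca (0.983). For Pgk1 they were Coq3 (0.985), Dnajb11 (0.982) and Sec24c (0.978). For Ldha they were Lgals4 (0.979), Coil (0.978) and Cyb5b (0.976), and for Pkm Stip1 (0.982), Nfkbib (0.970) and Copz1 (0.969). For Pfkl the first was Slc2a3 (0.970), the neuronal and leukocyte glucose transporter GLUT3, and for Hk2 it was Adssl1 (0.987). With 12422 probe sets and 10 points, high values are easily reached, and they are given as a description only.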

How the data were processed

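RNA of sorted leukocytes was measured on 24 oligonucleotide arrays of 1 platform. The authors deposited linear probe set intensity, 1 column per array. RMA is named for 11 arrays in the submitters' processing notes (all B6g7 infiltrates, NOD pancreatic T cells, B6g7 NK cells and NOD spleens, and 1 NOD NK array), so its naming and the background cannot be told apart in those comparisons, and for the other 13 the sources used here give no summary method. Array medians were 35.1 to 39.1 and the smallest intensity 5.70, so log2 was taken without a pseudocount or further normalization. The number of arrays limits the precision.

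Of 12488 probe sets, 66 controls were left out. Symbols came from the platform annotation, updated through RefSeq GRCm38.p6: 10833 probe sets had 1 gene, 396 several and 1193 none. Group means were fitted with limma 3.58.1 (R 4.3.3; lmFit, contrasts.fit, eBayes) on all arrays, with 14 residual degrees of freedom. Each of 14 comparisons was adjusted by Benjamini-Hochberg over 12422 probe sets, and an adjusted p under 0.05 passed. Mean-of-backgrounds comparisons weight both backgrounds equally. The fit was tested on simulated data.

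Members and lists were chosen with earlier results of these data known. Pathway and regulator genes were named where they passed, and the 3 most correlated genes were ranked per member. Alternatives were quantile normalization, median centring, leaving out the 40% dimmest probe sets, only the compared groups, a trended robust prior, the Gapdh difference as covariate, runs of adjacent serial codes (gap up to 10) as a block, the replicate number as a block, means over probe sets, arrays with liver transcripts left out and each array left out.

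Deviations of same-numbered NOD T cell arrays from their group means correlated at 0.34, 0.36 and 0.29 between pancreas and lymph node. In B6g7 the correlation was 0.79 for both numbers, which with 2 arrays a group is 1 value. These numbers were taken to pair the samples only in the replicate block, an alternative. The main fit used group means without pairing. NOD number 2 has ages of 24 and 22 days. The labels do not say what a number shares.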

Additional observations from a re-analysis of the deposited data

How the results depend on the processing

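Between backgrounds the count of member probe sets called was 0 under each alternative run in infiltrates, pancreatic T cells, NK cells, lymph node T cells, spleen and the average, and likewise in both interactions and in B6g7 T cells between sites. In NOD T cells between sites, leaving out single arrays gave 0 to 1. For B6g7 infiltrate over spleen (count 1), fitting only the compared groups gave 3 and the Gapdh covariate 2. For NOD infiltrate over spleen (count 2), serial code runs as a random block gave 1, the replicate block 1, only the compared groups 3 (adding Pgk1) and leaving out single arrays 1 to 2, while the Gapdh covariate gave 2 other genes, Pgk1 and Ldha in place of Hk1 and Pkm. For infiltrate over pancreatic T cells (count 2), leaving out the 40% dimmest probe sets (which removes Hk2), fitting only the compared groups, the Gapdh covariate, serial code runs, the infiltrate arrays with liver transcripts left out and the T cell arrays with them left out each gave 1, quantile normalization 3, and leaving out single arrays 1 to 3. For NK cells over lymph node T cells (count 3), the Gapdh covariate gave 0, serial code runs 1, and leaving out single arrays 1 to 4. Median centring, leaving out the dimmest probe sets, only the compared groups and the T cell arrays with liver transcripts left out gave 4, each adding Pgk1, and the replicate block gave 4 by adding the second probe set of a gene. Serial code runs took Pkm in NOD to an adjusted p of 0.115, Pfkl to 0.215, and Pkm and Ldha in NK cells to 0.163 and 0.0520 (limma). The cause of these changes was not tested. No called member changed sign. Hk1 passed whichever array was left out in infiltrate over spleen (adjusted p up to 0.0199 in B6g7 and 0.0126 in NOD) and in NK cells (0.0249), and Hk2 in infiltrate over pancreatic T cells (0.0241).

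Infiltrates of the 2 backgrounds share numbers whose arrays correlated at 0.42, 0.00 and 0.54, so only the number is taken as shared there. Among the probe sets that stand for their genes, the replicate block changed the call of Pkm in NOD and no other. Over all probe sets, the number called depended on the setting: 34 (2 to 115 over the alternatives) between infiltrates, 18 (0 to 307) between pancreatic T cells, 16 (1 to 20) between lymph node T cells, 6 (0 to 31) between NK cells, 9 (2 to 50) between spleens, 145 (94 to 181) in the average, 942 (324 to 1378) and 1133 (351 to 1517) for infiltrate over spleen in B6g7 and NOD, 925 (383 to 1520) over pancreatic T cells, 1882 (429 to 2159) for NK over lymph node T cells and 2 (0 to 1849) between NOD T cell sites. Where 1 array was left in a group, it was assumed to vary like the other groups.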
